A study of Rattus norvegicus with 29 samples.

Results

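The mitochondrial respiratory chain was followed in blood mononuclear cells through the nuclear genes that encode its subunits. Members were array probes named Nduf (complex I), Sdha to Sdhd (complex II), Uqcr (complex III), Cox4 to Cox8 (complex IV) or Atp5 (ATP synthase), without assembly factors and without mitochondrially encoded genes, whose sample signal stood well above background on at least 4 arrays. These were 79 of the 28242 probes tested, and they carried 68 of 24262 gene names: 36 probes of complex I, 4 of complex II, 5 of complex III, 18 of complex IV and 16 of ATP synthase. Another 2 probes carried a matching name but too little signal. The name rule also took in Cox4nb, Atp5s and Cox6c1, whose current symbols are Emc8, Dmac2l and Cox6c-ps1 and which are not subunits.

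RNA came from 29 male Wistar rats aged 6 months, 1 rat per array, whose mononuclear cells were taken from leg vein blood on a Ficoll gradient. The cafeteria groups had received an energy-dense, fat-rich diet beside chow for 4 months, and were sampled while eating freely (cafeteria fed), after 14 h without food (cafeteria fasted), or after 14 h without food and 6 h of renewed access (cafeteria refed), with 5 rats each. The control groups had received chow alone and were sampled in the same feeding states, with 4 control fed, 5 control fasted and 5 control refed rats. Each rat's RNA carried Cy5 and was hybridised against a Cy3-labelled pool of all groups, so every value below is a log2 ratio of a rat to that pool. Levels of different probes cannot be compared on this scale.

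Complexes I to IV pass electrons from NADH and succinate to oxygen and, except for complex II, pump protons across the inner mitochondrial membrane. ATP synthase lets the protons return and makes ATP. All subunits of complex II and most of the others are encoded in the nucleus. The transcription factors NRF1, GABP (an ETS factor) and YY1 are known to act on many of these promoters. Resting lymphocytes rely largely on oxidative phosphorylation, whereas activated lymphocytes and monocytes raise glycolysis. Platelets, which have no nucleus but contain mitochondria and RNA, often remain in Ficoll preparations.

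Promoters are shown for the 5 genes whose probes changed between control refed and control fasted rats, to set the letters of their promoters beside those changes. RefSeq windows of the GRCr8 build, from 250 bases before to 50 bases after the gene start, were found for 59 of the 68 current symbols. They were searched on both strands for the NRF1 motif (GCGCA, any base, then GCGC), for CCGGAAGT, which ETS factors bind, for AAGATGGC, which YY1 binds, and for AGATAA, which GATA factors bind. No motif contains another. None of these 4 motifs lay in the windows of Cox5a (chr8:66818034-66818333, plus strand), Cox7a2 (chr8:89601100-89601399, minus strand) and Ndufa1 (chrX:121293506-121293805, minus strand).
Cox5a: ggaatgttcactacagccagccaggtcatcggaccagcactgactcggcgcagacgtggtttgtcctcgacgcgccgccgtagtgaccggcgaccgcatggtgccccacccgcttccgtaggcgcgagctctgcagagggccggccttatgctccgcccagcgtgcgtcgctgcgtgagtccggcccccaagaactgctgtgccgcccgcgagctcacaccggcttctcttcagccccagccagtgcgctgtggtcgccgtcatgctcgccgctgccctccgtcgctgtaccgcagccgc
Cox7a2: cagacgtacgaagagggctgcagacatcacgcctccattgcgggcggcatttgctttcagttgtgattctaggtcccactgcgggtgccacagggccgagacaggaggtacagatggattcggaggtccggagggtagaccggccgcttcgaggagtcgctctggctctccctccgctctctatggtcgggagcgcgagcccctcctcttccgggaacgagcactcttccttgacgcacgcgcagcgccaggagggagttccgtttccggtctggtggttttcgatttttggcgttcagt
Ndufa1: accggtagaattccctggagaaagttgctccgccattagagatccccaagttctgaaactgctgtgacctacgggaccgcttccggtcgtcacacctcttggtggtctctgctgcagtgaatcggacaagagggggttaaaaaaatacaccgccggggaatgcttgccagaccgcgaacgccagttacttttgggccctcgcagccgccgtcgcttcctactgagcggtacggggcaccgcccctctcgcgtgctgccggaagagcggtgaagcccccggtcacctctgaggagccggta
The windows of Ndufs4 (chr2:47794865-47795164, minus strand) and Ndufs7 (chr7:10110449-10110748, minus strand) each held the YY1 motif just after the gene start, and that of Ndufs4 also held the GATA motif on the reverse strand. Capitals mark the matches.
Ndufs4: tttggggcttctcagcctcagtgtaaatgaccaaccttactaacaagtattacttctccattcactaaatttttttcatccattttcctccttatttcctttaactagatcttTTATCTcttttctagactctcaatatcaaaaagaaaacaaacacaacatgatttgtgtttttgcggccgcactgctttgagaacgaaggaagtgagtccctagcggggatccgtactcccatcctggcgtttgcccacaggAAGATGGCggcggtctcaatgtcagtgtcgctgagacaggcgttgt
Ndufs7: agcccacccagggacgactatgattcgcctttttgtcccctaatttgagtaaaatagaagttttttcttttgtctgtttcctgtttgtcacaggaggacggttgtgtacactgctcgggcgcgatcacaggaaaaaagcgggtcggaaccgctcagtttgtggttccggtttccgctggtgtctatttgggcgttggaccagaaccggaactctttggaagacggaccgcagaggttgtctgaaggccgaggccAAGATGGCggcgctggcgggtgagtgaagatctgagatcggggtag
The window of Sdha (chr1:30764303-30764602, plus strand) is shown because its probe was called in the fit on platelet genes described below. It held the NRF1 motif 3 times, again in capitals.
Sdha: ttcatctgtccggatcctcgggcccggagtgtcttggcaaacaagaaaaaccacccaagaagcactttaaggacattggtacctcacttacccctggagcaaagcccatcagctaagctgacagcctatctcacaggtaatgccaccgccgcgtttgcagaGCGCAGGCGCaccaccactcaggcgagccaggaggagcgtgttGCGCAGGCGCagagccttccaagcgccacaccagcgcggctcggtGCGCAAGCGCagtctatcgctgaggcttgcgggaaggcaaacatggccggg
Among the 59 windows, 14 (23.7%) held the NRF1 motif, against 4.25% of all 33469 windows. Of these 14, 7 belonged to complex I, 5 to ATP synthase, 1 each to complexes II and III, and 0 to complex IV. The YY1 motif was in 13 (22%), against 3.17% of all windows, and in 9 of the 13 it lay within the first 50 bases of the gene (69.2%, against 42.8% of all windows that held it). The ETS motif was in 6 (10.2%, against 3.81%) and the GATA motif in 5 (8.47%, against 11.6%). Member windows were also richer in CpG, with a median of 21 against 7 in all windows, and a median GC content of 57% against 51.7%. A match is a description of the sequence, not a bound site.

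The respiratory chain probes were well measured. Of the 79, 74 stood well above background on all 29 arrays and 0 were saturated on any. The exceptions included Cox6b2, the testis isoform of a complex IV subunit, on 26 arrays and 2 probes of Cox8h, a muscle isoform, on 21 and 10 arrays. These lie on the strand opposite to another Cox8h probe, which was matched to the gene by its accession and stood above background on 1 array, so they need not read its mRNA. The median intensity of an array in Cy5 ran from 103.2 to 154.2, and 53.3% to 66.7% of its spots stood well above background. Markers of the labelled cell type were present: 15 of 16 T cell, 11 of 14 B cell, 11 of 14 NK and 13 of 14 monocyte genes were measured. Also measured were 13 of 20 platelet genes, among them Pf4, Ppbp and Gp9, 11 of 13 erythroid genes and 13 of 16 neutrophil genes. In such a mixture, fewer cells of a type and less RNA per cell cannot be told apart.

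**Figure D1:**
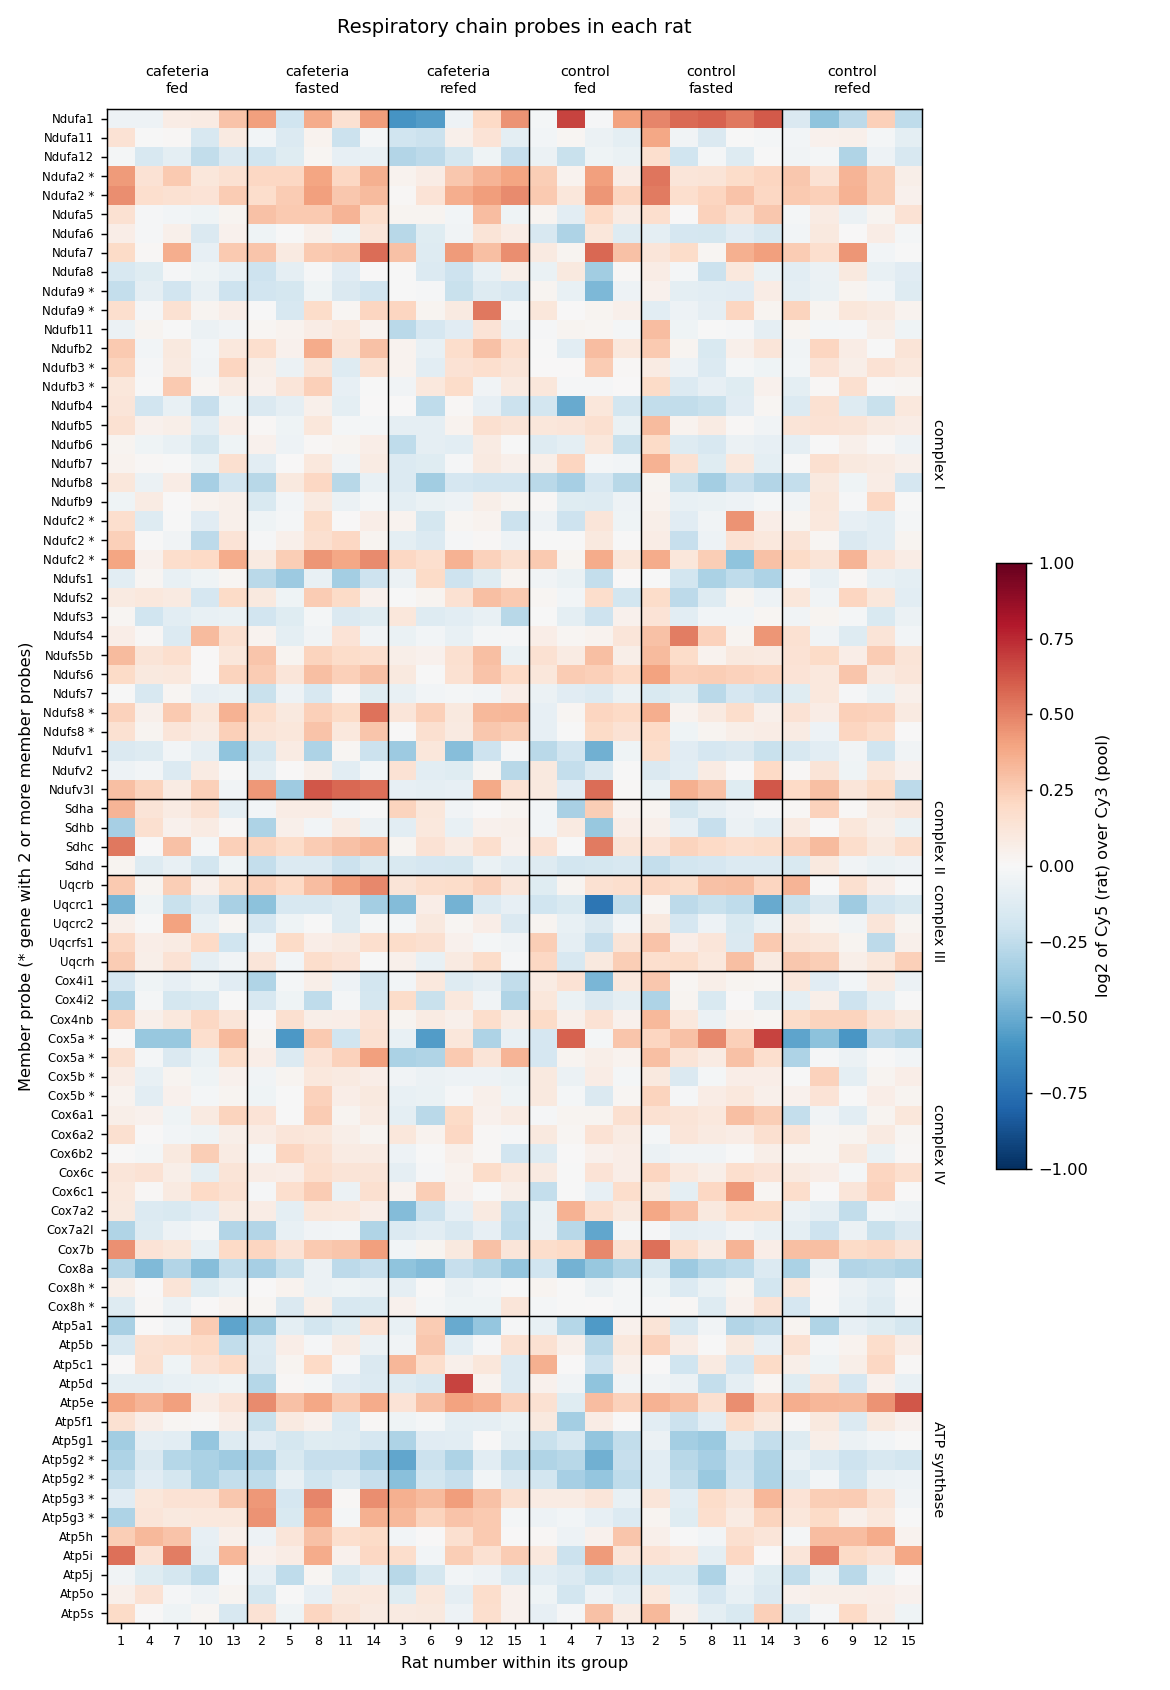
Each row is 1 member probe, ordered by complex, and each column 1 rat, ordered by group (number under the column). Colour gives the log2 ratio of the rat (Cy5) to the pooled RNA (Cy3), blue below and red above 0. Most rows are pale throughout, and Ndufa1 and the first Cox5a row stand out, red in all 5 control fasted rats and, except for Ndufa1 in rat 12, blue in the control refed rats.

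Most subunits moved little among rats of a group. The standard deviation within groups had a median of 0.124 on the log2 scale over the 79 probes, beside 0.128 over all probes tested. It was highest for Ndufa1 (0.279), Ndufv3l (0.275), Cox5a (0.270) and Atp5a1 (0.234). Averaged over all 79 probes, the log2 ratio of a rat lay between -0.03 and 0.06 in cafeteria fed, -0.01 and 0.12 in cafeteria fasted and -0.05 and 0.08 in cafeteria refed rats. It lay between -0.05 and 0.02 in control fed, -0.02 and 0.13 in control fasted and 0.00 and 0.06 in control refed rats. Every pair of groups overlapped.

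Where a gene had several probes, some repeated each other and some did not. Across the 29 rats the pairs for Atp5g3 (r = 0.93), Ndufa2 (r = 0.91), Ndufs8 (r = 0.87) and Atp5g2 (r = 0.86) ran together. The pairs for Ndufa9 (r = -0.03) and Cox8h (r = -0.35) did not. Ndufc2 probes of the same transcript and strand gave r = -0.09, but rho = 0.51. Ndufc2 pairs on opposite strands gave r = 0.64 and 0.19, and the Ndufb3 pair, also on opposite strands, 0.36. The Cox5b pair gave r = 0.61. The Cox5a probes, which lie on opposite strands of the rn4 build, gave r = 0.54. These correlations are descriptions over rats that share an array for both probes.

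A few single subunits differed between refed and fasted control rats. Between control refed and control fasted rats, 1 of the 79 probes rose and 4 fell at an adjusted p under 0.05 in limma with Benjamini-Hochberg adjustment over all probes. Of all 28242 probes, 9.01% were called, 3.07% rising and 5.94% falling (866 and 1678 probes), so the count of 5 is no result about the module as a whole. The members' median change was 0.02, against 0.01 over all probes, and 45 of 79 lay above 0. Their median absolute change was 0.05, against 0.09 over all probes. At an unadjusted p under 0.05 there were 13 members (6 higher, 7 lower), against 21.9% of all probes. In 76 of the 79 the 95% interval lay within 0.5 either side of 0, a 1.41-fold change, and the 3 that did not were the Ndufa1 probe and both Cox5a probes.

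In complex IV, Cox5a and Cox7a2 fell. Cox5a encodes a structural subunit on the matrix side of cytochrome c oxidase. Its log2 ratio was -0.53, -0.41, -0.58, -0.26 and -0.30 in control refed rats, against 0.22, 0.29, 0.48, 0.24 and 0.67 in control fasted rats. All refed rats were below 0 and all fasted rats above, without overlap. The refed mean was -0.42 ± 0.14 and the fasted mean 0.38 ± 0.19 (SD, n = 5 each), which is a log2 change of -0.80 (SE 0.16, 95% interval -1.13 to -0.47, adjusted p = 0.00261), or 1.74-fold lower. The probe on the opposite strand gave -0.31, -0.01, -0.06, -0.00 and -0.03 in control refed rats, against 0.30, 0.13, 0.08, 0.30 and 0.17 in control fasted rats. It did not overlap between the groups either, but its change of -0.27 (SE 0.11) was not called (adjusted p = 0.135). Cox7a2 encodes the widely expressed isoform of subunit VIIa. It stood at -0.06, -0.09, -0.25, -0.03 and -0.05 in control refed rats and at 0.39, 0.28, 0.10, 0.20 and 0.19 in control fasted rats, again without overlap. Its change was -0.33 (SE 0.08, adjusted p = 0.0126). Cox6a1, the non-muscle isoform of subunit VIa, came next, with a change of -0.23 (SE 0.08, adjusted p = 0.0507), and was not called. Several alternatives called it, but median centring in place of loess and a fit with platelet genes as a covariate, both described below, did not. It passed with slide or image extraction run as a block (adjusted p of 0.0461 and 0.0332), without background correction (-0.28, adjusted p = 0.0231), and with only the probes above background on all arrays or the brightest probe per gene kept (0.0465 and 0.0497). It also passed without control refed rat 15 (-0.28, adjusted p = 0.0270), cafeteria refed rat 6 or 9, cafeteria fasted rat 8 or cafeteria fed rat 13.

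In complex I, Ndufa1 and Ndufs4 fell and Ndufs7 rose. Ndufa1 encodes a small membrane subunit needed to assemble complex I. It was at -0.14, -0.40, -0.26, 0.24 and -0.25 in control refed rats, against 0.49, 0.57, 0.59, 0.52 and 0.62 in control fasted rats. The refed mean was -0.16 ± 0.24 and the fasted mean 0.56 ± 0.05 (SD, n = 5 each), so the refed rats were all lower and more spread. The change was -0.72 (SE 0.17, 95% interval -1.06 to -0.38, adjusted p = 0.00605), or 1.65-fold lower. Ndufs4 encodes an accessory subunit of the arm that oxidises NADH. It lay at 0.15, -0.04, -0.13, 0.13 and -0.03 in control refed rats, against 0.29, 0.51, 0.23, 0.03 and 0.44 in control fasted rats, where rat 11 overlapped the refed range. The change was -0.28 (SE 0.08, adjusted p = 0.0221). Ndufs7 encodes the core subunit that holds the last iron-sulphur cluster before ubiquinone. It stood at -0.12, 0.10, -0.02, -0.07 and 0.05 in control refed rats, against -0.15, -0.12, -0.27, -0.17 and -0.21 in control fasted rats. The closest rats of the groups met near -0.12, and the change was 0.18 (SE 0.05, adjusted p = 0.0218). It was the only 1 of the 7 core subunits listed for complex I to be called.

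The calls of Cox5a, Ndufa1 and Cox7a2 held when any 1 of the 29 rats was left out, with largest adjusted p of 0.00905, 0.0226 and 0.0448. Those of Ndufs4 and Ndufs7 did not. Ndufs4 was lost without control refed rat 6 or 9 or control fasted rat 5 or 14 (changes of -0.27, -0.25, -0.23 and -0.25, adjusted p of 0.0557, 0.0729, 0.0743 and 0.0696). Ndufs7 was lost without control refed rat 6 or 15 or control fasted rat 8 or 14 (changes of 0.15, 0.16, 0.15 and 0.17, adjusted p of 0.0817, 0.0576, 0.0704 and 0.0503). Array scaling also mattered. With median centring in place of loess all 5 calls were lost, with changes of -1.02 for Cox5a (adjusted p = 0.0516), -0.96 for Ndufa1 (0.104), -0.50 for Cox7a2 (0.428), -0.29 for Ndufs4 (0.101) and 0.03 for Ndufs7 (0.9995). Cox7a2 was lost with Cy5 alone (-0.23) and in the authors' deposited table (-0.22), and Ndufs4 with Cy5 alone (-0.17). The scanner's processed signals gave a larger change for Ndufs4 (-0.79, adjusted p = 0.0152). Ndufs7 was at 0.29 with Cy5 alone (adjusted p = 0.00599) and in the authors' deposited table (0.0331). On the rn4 build these probes lie at chr8:61276320-61276379 (Cox5a, plus strand), chr8:84813316-84813375 (Cox7a2, minus), chrX:7727730-7727789 (Ndufa1, plus), chr2:45840002-45840061 (Ndufs4, minus) and chr7:10963919-10963978 (Ndufs7, minus), and their place in exons was not analysed here.

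The arrays had been image-extracted in 2 runs. Within each run the differences kept their sign, at -0.78 and -1.06 for Cox5a, -0.82 and -0.71 for Ndufa1, -0.31 and -0.30 for Cox7a2, -0.21 and -0.45 for Ndufs4, and 0.17 and 0.20 for Ndufs7, although run 2 held 1 control fasted rat. On the 3 slides that held both groups, all differences had the same sign for each gene but Ndufs4, which ran from -0.57 to 0.13.

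**Figure D2:**
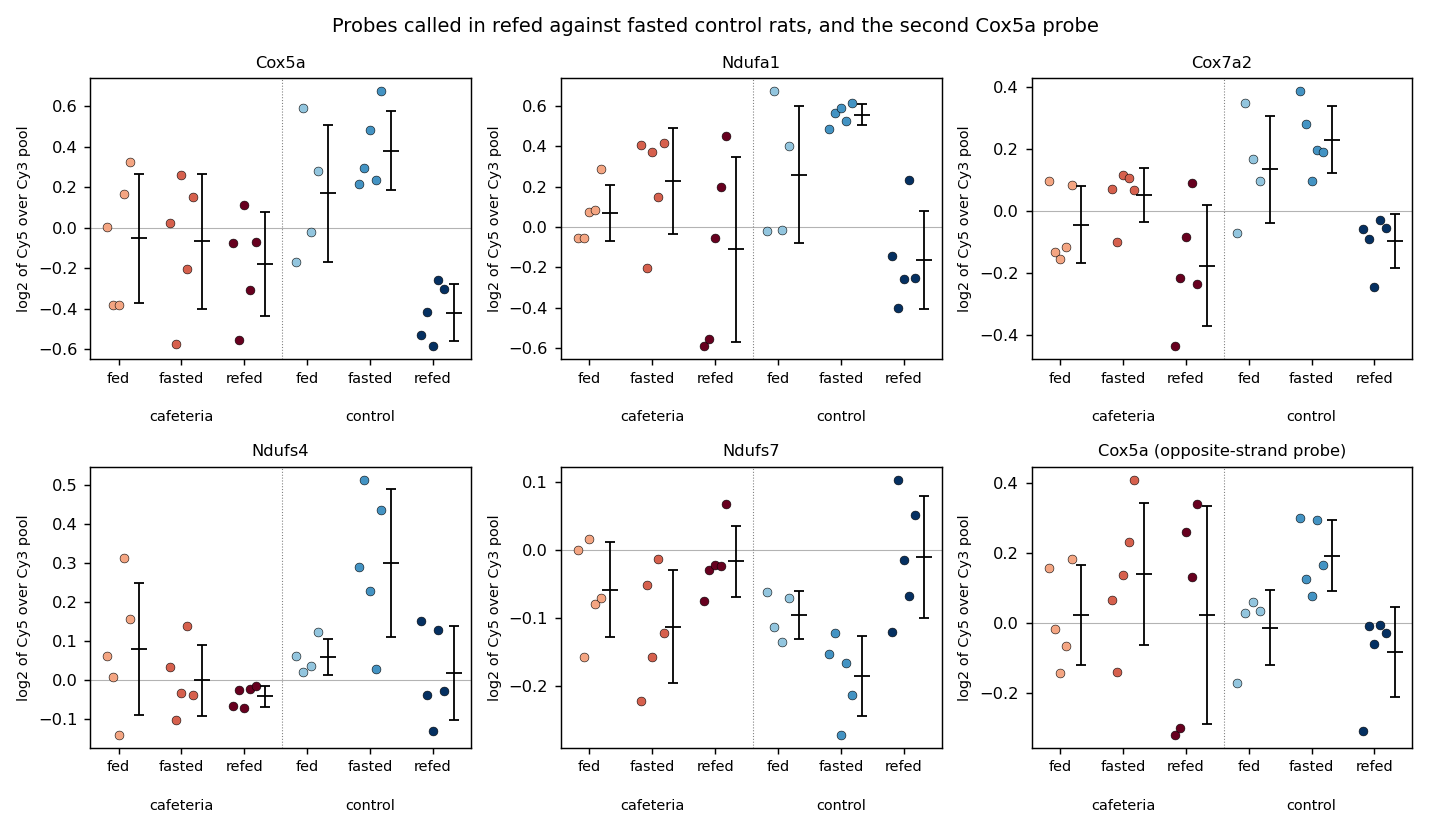
Points are rats, horizontal bars group means and whiskers SD, with the log2 ratio to the pool on the vertical axis (each panel has its own range) and the 6 groups along the horizontal axis. Cox5a, Ndufa1 and Cox7a2 lie lower in all 5 control refed rats than in any control fasted rat, and the cafeteria groups overlap in every panel.

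Platelet genes moved between the same groups. The mean log2 ratio of the 13 platelet genes lay between -1.31 and -0.21 in control refed rats and between 0.42 and 0.76 in control fasted rats, and all 13 fell (median change -1.54). In cafeteria refed rats it ranged from -1.56 to 0.34, and in cafeteria fasted rats from -0.45 to 0.18. With that mean as a covariate, the change between control refed and control fasted rats was -0.01 for Ndufa1 (adjusted p = 0.986), -0.39 for Cox5a (0.381), -0.13 for Cox7a2 (0.624), -0.14 for Ndufs4 (0.571) and 0.16 for Ndufs7 (0.299). The same fit called 0 of the 79 members and 5 of all probes (2 up, 3 down), against 2544 without it. The covariate and the feeding state coincide closely in control rats, so their parts cannot be told apart there.

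Within groups, where feeding state and diet were constant, 2 members rose and 1 fell with the platelet mean, in a limma fit of group plus platelet mean that was chosen after the data had been seen. Of all probes, 5.48% were called in that fit, 1249 positive and 298 negative. Ndufa1 rose by 0.50 log2 units per log2 unit of the platelet mean (SE 0.06, adjusted p = 1.5e-06). Without the 2 rats farthest from the median (cafeteria refed rat 3 and control refed rat 6) the slope was 0.51 (adjusted p = 5.92e-05). Sdha, the catalytic flavoprotein of complex II, fell, with a slope of -0.17 (SE 0.04, adjusted p = 0.0192), and lost its call without these 2 rats (adjusted p = 0.102). The opposite-strand Cox5a probe had a slope of 0.22 (adjusted p = 0.0393), lost without them (adjusted p = 0.139), while the first Cox5a probe had 0.29 (adjusted p = 0.0913) and was called without them (0.46, adjusted p = 0.00843). With image extraction run as a block 1 member rose (Ndufa1, 0.50, adjusted p = 1.98e-05) and 1 fell (Sdha, -0.19, adjusted p = 0.0296), and the opposite-strand Cox5a probe lost its call (0.19, adjusted p = 0.173). The median slope over the 79 was 0.00, against -0.01 over all probes. The part of platelet RNA in the changes above was not tested further.

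**Figure D3:**
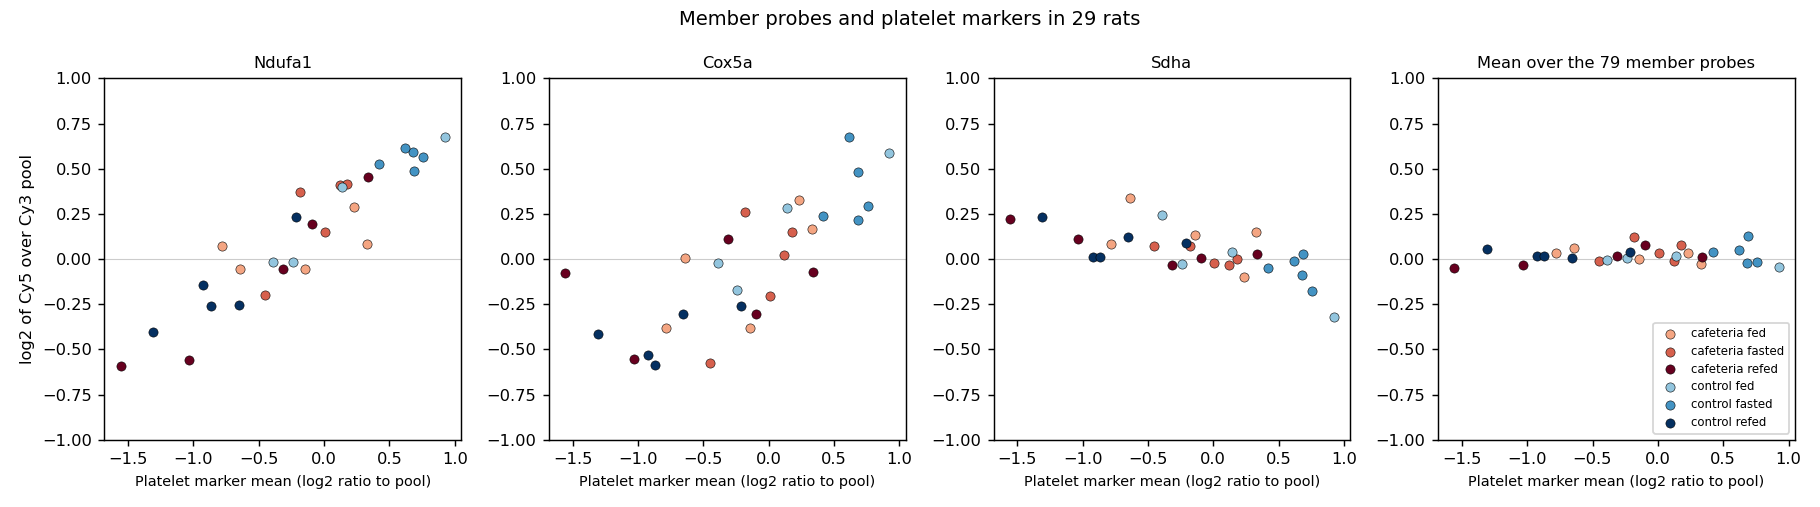
Each point is 1 of the 29 rats, coloured by group. The horizontal axis is the mean log2 ratio of 13 platelet genes and the vertical axis the log2 ratio of Ndufa1, the first Cox5a probe, Sdha, or the mean over 79 member probes. Ndufa1 climbs along the axis within and across groups, Sdha declines slightly, and the mean over the members stays between -0.05 and 0.13.

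Averages over a complex differed little between control refed and control fasted rats. The changes of the 4 complex II subunits were all above 0, at 0.15 for Sdha, 0.12 for Sdhb, 0.02 for Sdhc and 0.13 for Sdhd. In limma 0 of them were called and 1, Sdhd, had an unadjusted p under 0.05 (adjusted p = 0.0694). Sdhd was called with Cy5 alone (0.24, adjusted p = 0.0201) and without control refed rat 3 (0.16, adjusted p = 0.0314). The complex II mean lay between 0.04 and 0.16 in control refed rats and between -0.07 and -0.01 in control fasted rats, without overlap. Its median change of 0.13 stayed positive under every scaling tried but median centring, where it was -0.03, and was 0.00 with the platelet covariate. For complex IV the mean lay between -0.07 and 0.01 in control refed rats and between 0.03 and 0.12 in control fasted rats. Without the probes called in complex IV, those ranges were -0.02 to 0.04 and -0.01 to 0.10 and overlapped. The complex IV median was -0.03, and 0.08 in the authors' deposited table, where the median of all probes was 0.15. In ATP synthase 14 of 16 probes were above 0, with a median of 0.06 (-0.07 under median centring). In limma 0 of the 16 were called and 2 had an unadjusted p under 0.05, of which Atp5g1 changed by 0.20 (adjusted p = 0.0728). Atp5g1 encodes one of the copies of the membrane ring subunit, and was called in the authors' deposited table (0.32, adjusted p = 0.0429) and without control fasted rat 2 (0.24, adjusted p = 0.0340). Complex III, with 5 probes, had a median of 0.01.

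**Figure D4:**
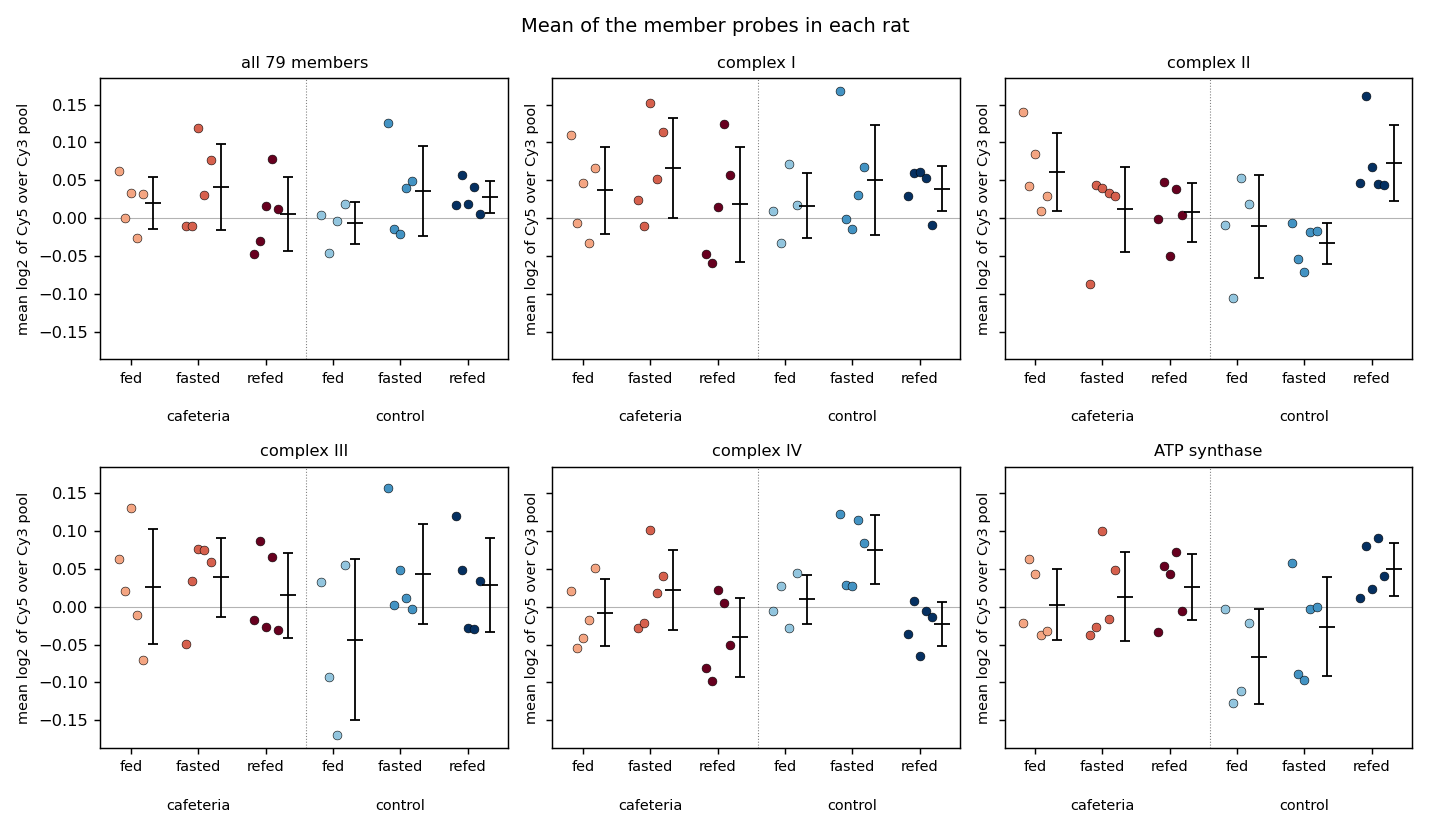
Points are rats, bars group means and whiskers SD of the mean log2 ratio over all 79 members and over the probes of each complex. All panels share 1 vertical scale. Complex II is higher in every control refed rat than in any control fasted rat, complex IV is lower, and all groups overlap in the panel for all members.

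In cafeteria rats the same subunits were not called. Between cafeteria refed and cafeteria fasted rats 0 of 79 passed in limma, with 1.32% of all probes called, and 6 members had an unadjusted p under 0.05 (1 higher, 5 lower), against 13.1% of all probes. The median was -0.03 (all probes 0.00), and 52 of 79 lay below 0. Cox5a was at -0.08, -0.56, 0.11, -0.31 and -0.07 in cafeteria refed rats, against 0.02, -0.57, 0.26, -0.20 and 0.15 in cafeteria fasted rats, which overlapped almost wholly. Its change was -0.11 (SE 0.16), that of Ndufa1 -0.34 (SE 0.17) and that of Cox7a2 -0.23 (SE 0.08). Whether refeeding acted differently in the diets was tested as an interaction. For Cox5a it was 0.69 (SE 0.23, adjusted p = 0.617), and 0 of 79 members and 0 of all probes passed, with 6 members at an unadjusted p under 0.05, against 7.44% of all probes. A difference between the diets in the refeeding response was thus not shown.

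Ndufa5, an accessory subunit of complex I, came closest in the cafeteria rats. It was at 0.03, 0.02, -0.03, 0.31 and -0.04 in cafeteria refed rats, against 0.30, 0.26, 0.26, 0.34 and 0.18 in cafeteria fasted rats. Rat 12 of the refed rats alone lay inside the fasted range. The change was -0.21 (SE 0.07, adjusted p = 0.122), and without cafeteria refed rat 12 it was -0.27 and called (adjusted p = 0.0191). Ndufs1, the largest iron-sulphur core subunit, had the opposite pattern, with a change of 0.22 (SE 0.07, adjusted p = 0.128).

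After 14 h without food, 0 of the 79 probes were called as changed in either diet. Between cafeteria fasted and cafeteria fed rats, 0.821% of all probes were called, the members' median was 0.02 (all probes 0.00), and 5 members had an unadjusted p under 0.05 in limma (2 higher, 3 lower), against 10.4% of all probes. Ndufa5 at the values above, against 0.15, -0.01, -0.03, -0.04 and 0.03 in cafeteria fed rats, did not overlap and changed by 0.25 (SE 0.07, adjusted p = 0.0720). Left without cafeteria refed rat 12, which is in neither group but adds to the shared spread, it passed (adjusted p = 0.0386). Ndufs1 was at -0.27, -0.36, -0.08, -0.34 and -0.21 in cafeteria fasted rats, against -0.11, 0.02, -0.07, -0.04 and 0.02 in cafeteria fed rats. These ranges overlapped, and the change was -0.22 (SE 0.07, adjusted p = 0.171). Image extraction run 1 held 4 cafeteria fed and 1 cafeteria fasted rats, and run 2 held 1 and 4. Run and fasting thus largely coincided in the cafeteria rats. Between control fasted and control fed rats, 0.0814% of all probes were called, the median was 0.03 (all probes 0.01), and 2 members had an unadjusted p under 0.05, both higher, against 11.5% of all probes. Ndufs4 stood first there with 0.24 (SE 0.08, adjusted p = 0.235), followed by Uqcrb, a subunit of complex III, with 0.18 (SE 0.07, adjusted p = 0.309). The intervals of 77 of the 79 probes lay within 0.5 either side of 0 in each diet. Ndufa1 was outside in both, beside Ndufv3l in cafeteria and Cox5a in control rats. The diet by fasting interaction was called for 0 members and 0 of all probes, with 1 member at an unadjusted p under 0.05, against 3.21% of all probes.

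**Figure D5:**
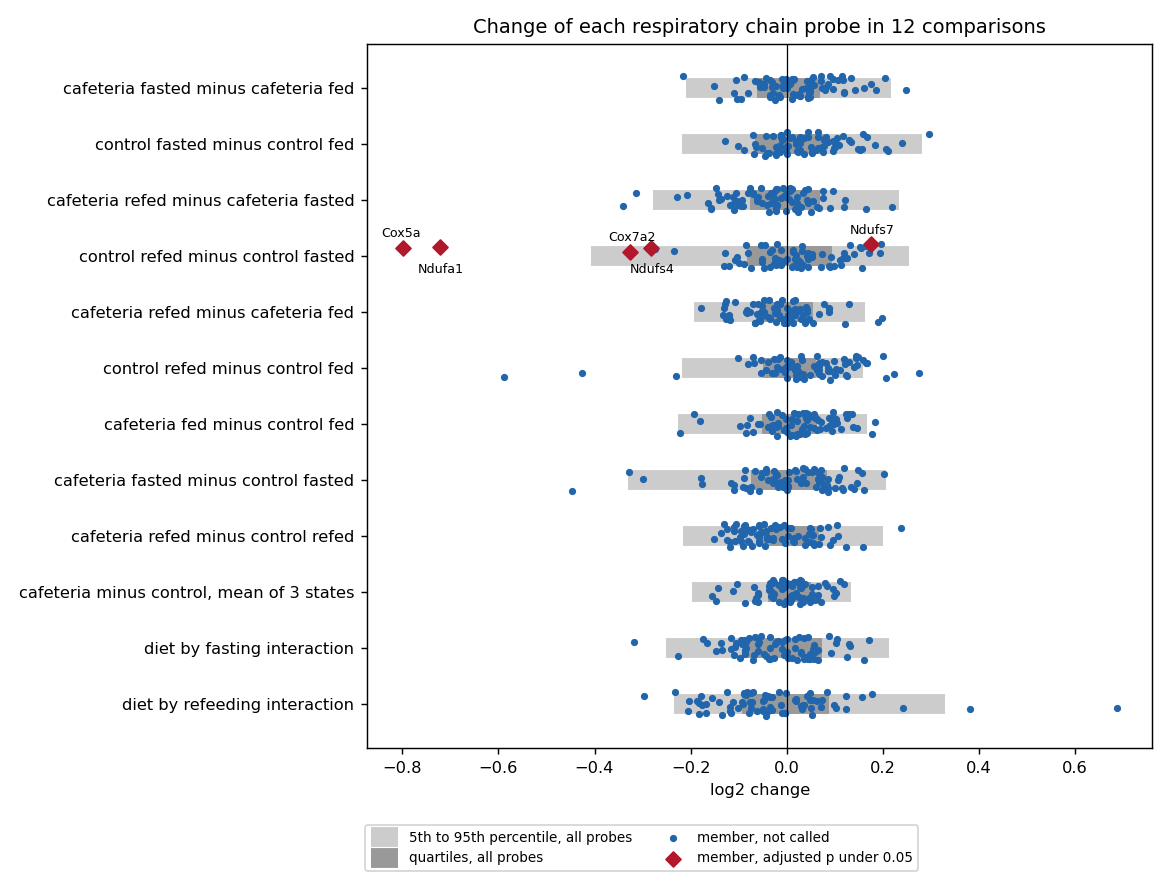
Each point is the log2 change of 1 member probe in 1 of 12 comparisons (rows). Grey bars give the quartiles and the 5th to 95th percentiles of all 28242 probes, and red diamonds mark members with an adjusted p under 0.05. The 5 diamonds, from Cox5a at -0.80 to Ndufs7 at 0.18, all lie in the row of control refed minus control fasted.

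Between refed and freely fed rats 0 members were called. Between cafeteria refed and cafeteria fed rats the median was -0.01, and between control refed and control fed rats 0.03. In limma 0% of all probes were called in both. At an unadjusted p under 0.05 there was 1 member in cafeteria rats (1.27%, against 4.20% of all probes) and there were 11 in control rats (13.9%, against 5.68%), 8 of these higher and 3 lower. Cox5a had the lowest change in control rats. Its values in control fed rats were -0.17, 0.59, -0.02 and 0.28, above the control refed values given before, and the change was -0.59 (SE 0.17, adjusted p = 0.378). The 2 probes of Atp5g3, which encodes another copy of the membrane ring subunit, changed by 0.20 and 0.19 in cafeteria rats and were not called (adjusted p = 1).

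Comparisons of the diets called 0 of the 79 probes in any feeding state. Between cafeteria fed and control fed rats the median was 0.04, with 0.00354% of all probes called and 0 members at an unadjusted p under 0.05 (4.87% of all probes). Between cafeteria refed and control refed rats it was -0.04, with 0.368% of all probes called and 0 members at an unadjusted p under 0.05 (8.43% of all probes). Between cafeteria fasted and control fasted rats it was 0.01, with 1.13% of all probes called and 5 members at an unadjusted p under 0.05 (2 higher, 3 lower), against 15.2% of all probes. Ndufs4 came closest in the fasted rats, at 0.04, -0.10, -0.03, 0.14 and -0.04 in cafeteria fasted rats against 0.29, 0.51, 0.23, 0.03 and 0.44 in control fasted rats. Control fasted rat 11 alone lay inside the cafeteria range. The change was -0.30 (SE 0.08, adjusted p = 0.0584). It passed without control fasted rat 11 (-0.37, adjusted p = 0.0147), and also without cafeteria fed rat 7 (0.0458) or 10 (0.0414). Image extraction run 1 held 4 control fasted and 1 cafeteria fasted rats, and run 2 held 1 and 4. Run and diet thus largely coincided in the fasted rats. Averaged over the feeding states, the diets differed in 3.91% of all probes and in 0 members, with 3 members at an unadjusted p under 0.05, against 15.7% of all probes. All 79 intervals lay within 0.5 of 0 there, and Cox7a2 had the smallest adjusted p (-0.15, SE 0.05, adjusted p = 0.104). Without cafeteria refed rat 12 its change of -0.17 was called (adjusted p = 0.0345).

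Other genes of mitochondrial energy metabolism also changed between control refed and control fasted rats. Of 16 measured regulators of mitochondrial gene expression, 4 rose and 1 fell, with a median of 0.11, against 0.01 over all probes. Of all probes 3.07% rose and 5.94% fell, 9.01% in all, and the counts below are to be read against these shares. The fall was that of Ppard (-0.16, adjusted p = 0.0247), a fatty acid receptor, and was lost without control refed rat 3 or 9 or control fasted rat 5, 8 or 14 (adjusted p between 0.0522 and 0.0733). Those that rose included Mterf1 (0.45, adjusted p = 0.00220), which ends mitochondrial transcription, and Pprc1 (0.32, adjusted p = 0.00614), a coactivator of the PGC-1 family. The others were the nuclear receptor Esrra (0.31, adjusted p = 0.00276) and Tfam (0.20, adjusted p = 0.00281), which packages mitochondrial DNA and starts its transcription. The other Mterf1 probe changed by 0.30 and was not called (adjusted p = 0.0881). Of 10 antioxidant enzymes 3 fell: Sod2 (-1.24, adjusted p = 0.00624), Gsr (-0.89, adjusted p = 0.00302) and Prdx3 (-0.47, adjusted p = 0.00307). Of 11 carriers 1, Vdac3, a channel of the outer membrane, fell (-0.60, adjusted p = 0.000819). Of 62 mitochondrial ribosomal proteins 2 rose and 1 fell, fewer than the share of all probes, the last being Mrps18c (-0.86, adjusted p = 0.00640), and the rises Mrpl34 (0.25, adjusted p = 0.00838; 0.08 at its other probe) and Mrps14 (0.38, adjusted p = 0.0225; 0.25 at both of its other probes). Mrps14 was lost without control refed rat 12 or control fasted rat 8 or 14 (adjusted p between 0.0740 and 0.0839). Apart from Ppard and Mrps14, the calls of the genes named here held without any 1 rat. All of them were lost with the platelet covariate, where Sod2 changed by -0.00 and Esrra by 0.37 (adjusted p of 0.999 and 0.0843), and under median centring all but Sod2 and Gsr were lost. In limma Ppard was also lost with processed signals (adjusted p = 0.507), Cy5 alone (0.249) and no background correction (0.226). The authors' deposited table ended the call of Prdx3 (adjusted p = 0.0544), and Cy5 alone that of Mrpl34 (0.0502).

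Assembly factors build the complexes. Their list, in which Lrpprc was also counted, gave 3 rises among 25 in control refed against control fasted rats, where 3.07% of all probes rose and 5.94% fell. Cox20, needed to mature a complex IV subunit, rose by 0.47 (adjusted p = 0.0155), lost without control refed rat 12 or control fasted rat 14 (adjusted p of 0.064 and 0.063). Sdhaf3 (0.51, adjusted p = 0.0247) was lost without control refed rat 3 or 9 or control fasted rat 2 or 14 (0.0537 to 0.0785). Lrpprc (0.21, adjusted p = 0.0391) was lost without control refed rat 3, 9, 12 or 15 or control fasted rat 5, 8, 11 or 14 (0.0515 to 0.129). The other Lrpprc probe changed by 0.17 and was not called (adjusted p = 0.123). In limma 0 of 18 import, 0 of 14 electron carrier and ubiquinone synthesis and 0 of 4 F1 head genes were called, with 3, 0 and 0 at an unadjusted p under 0.05. In the citric acid cycle and pyruvate dehydrogenase list 1 of 17 fell, Ogdh (-0.30, adjusted p = 0.0479), and the call was lost in 19 of 29 omissions. Mterf1, Cox20 and Ogdh were also called in cafeteria rats. Between cafeteria fasted and cafeteria fed rats Cox20 fell by 0.58 (adjusted p = 0.0242), Mterf1 fell by 0.42 (adjusted p = 0.0220) and Ogdh rose by 0.43 (adjusted p = 0.0294). Cox20 and Ogdh were each lost there without cafeteria fasted rat 5, 8 or 11 or cafeteria fed rat 1, 7 or 13, and Mterf1 without cafeteria fasted rat 5 or 11 or cafeteria fed rat 1 or 7 (adjusted p up to 0.102, 0.129 and 0.108). Between control fasted and control fed rats Mterf1 fell by 0.47 (adjusted p = 0.0460), lost in 16 of 29 omissions. That call was also lost with processed signals, Cy5 alone, the authors' deposited table, no filter and the platelet covariate (adjusted p between 0.0569 and 0.177). The other Mterf1 probe was called in neither fast, with -0.33 in control and -0.26 in cafeteria rats (adjusted p of 0.226 and 0.356). With image extraction run as a block the 3 fasting calls in cafeteria rats were lost (adjusted p of 0.0943 for Cox20, 0.0804 for Mterf1 and 0.0872 for Ogdh), as was that of Ogdh between control refed and control fasted rats (0.0689). The authors' deposited table also ended the fasting call of Mterf1 in cafeteria rats (adjusted p = 0.0834). Mterf1 was higher in cafeteria refed than in cafeteria fasted rats by 0.45 (adjusted p = 0.0104). Of the omissions, only that of cafeteria fasted rat 11 lost it (adjusted p = 0.0527), as did the authors' deposited table (0.151). The other Mterf1 probe was not called between cafeteria refed and cafeteria fasted rats (0.35, adjusted p = 0.115). Cox20 rose by 0.55 there (adjusted p = 0.0247) and Ogdh fell by 0.44 (adjusted p = 0.0177), both lost without cafeteria refed rat 9 or 15 or cafeteria fasted rat 5 or 11, and Cox20 also without cafeteria fasted rat 8 (adjusted p up to 0.0868 and 0.0750). Averaged over feeding states, cafeteria rats had higher Cat (0.23, adjusted p = 0.0123) and lower Vdac1 (-0.50, adjusted p = 0.00375; -0.02 and -0.05 at its other probes), Ppargc1b (-0.38, adjusted p = 0.0138; 0.01 at its other probe) and Mrpl45 (-0.27, adjusted p = 0.0167) than control rats. Between control refed and control fasted rats the platelet covariate ended the calls of Cox20, Sdhaf3, Lrpprc and Ogdh. Their adjusted p there were 0.155, 0.404, 0.143 and 0.191. Processed signals, Cy5 alone and the authors' deposited table each ended every call of Ogdh (adjusted p between 0.0596 and 0.305). Lrpprc was also lost without background correction (0.0838) and Mrpl45 in the authors' deposited table (0.104). Median centring ended every call named in this paragraph.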

How the data were processed

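The deposited scanner output, per the file headers from Feature Extraction 9.5.1.1 (Agilent) and with rn4 as the build of its coordinates, gives each spot's mean intensity and local background intensity in both colours and flags for spots above background, saturated or outlying. The authors' deposited value table holds log2 values, which the labels call normalized Cy5 signal; how arrays were normalized is not given in the sources used here, and it served as an alternative. With R 4.3.3 and limma 3.58.1, background was corrected by normexp (offset 50), log2 ratios of Cy5 over Cy3 were normalized by loess within arrays, and outlier spots were left out. Of 41012 probes, the 28242 well above background in Cy5 on at least 4 arrays were tested in 1 limma fit over the 6 groups, with Benjamini-Hochberg adjusted p-values within each of 12 comparisons and calls at an adjusted p under 0.05. The number of arrays limits the precision.

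Members and gene lists were chosen with earlier results of these data known. In each comparison the text names called members (at most 12 a direction), those with the smallest p up to 5 where fewer were called, chosen marker subunits and isoforms, and at most 4 called genes of a pathway list. Gene names came from the files, with symbols of the RefSeq table of GRCr8, and all 79 members matched one. Probes for Ndufs6 and Atp5e map to a chromosome other than that of the gene. Alternatives covered background, scaling, filters, blocks, omitted rats and a platelet covariate. Rat numbers of the labels were not used to pair rats in the main fit. Deviations of same-numbered rats of both diets correlated between -0.15 and 0.21 over 14 pairs, 2 of them above 0.1. Such correlations cannot tell whether the rats had been paired.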

Additional observations from a re-analysis of the deposited data

Results flagged for a closer look

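Groups of 4 or 5 rats were examined for some, not all, of the members named in the report. In 4 of 48 such groups, 1 rat stood apart from the others by the gap between it and its nearest neighbour. Chance alone flags about 1 in 20 groups. For Cox7a2, control refed rat 9 was at -0.25, with the next at -0.09, and cafeteria fasted rat 5 at -0.10, with the next at 0.07. For the opposite-strand Cox5a probe, control refed rat 3 was at -0.31, with the next at -0.06, and control fed rat 1 at -0.17, with the next at 0.03.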

How the results depend on the processing

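Between control refed and control fasted rats, 5 members were called in the settings reported, and 0 under median centring of each array in place of loess and 0 with the platelet mean as a covariate; the cause was not tested. All probes then numbered 30 rises and 891 falls, and 2 and 3, against 866 and 1678. The authors' deposited table gave 3306 rises and 1123 falls, with all probes shifted by 0.15, and 4 rises and 3 falls among members, over its 20173 probes and 73 members rather than 28242 and 79. The scanner's processed signals, Cy5 alone, no background correction, other filters, the brightest probe per gene and slide or image extraction run as a block gave 4 to 6 called members. Leaving out each rat gave 3 to 6, with 3 without control refed rat 6 or control fasted rat 14. Omissions gave 0 to 1 in the comparisons of cafeteria fasted with cafeteria fed, cafeteria refed with cafeteria fasted, and cafeteria fasted with control fasted rats, and in the diet mean, where Cox7a2 was called without cafeteria refed rat 12 and 1 other probe without control fed rat 7. In cafeteria fasted against cafeteria fed rats 1 member was called without background correction. Of members named but not called, median centring turned the sign in cafeteria refed against control refed rats of Sdhd (0.20), Atp5g2 (0.16 and 0.20 at its probes), Uqcrh (0.18) and Cox5b (0.18), in control refed against control fed rats of Atp5e (-0.11) and Atp5g2 (-0.073), in cafeteria refed against cafeteria fed rats of Atp5f1 (0.018) and Cox7a2 (0.010), in cafeteria fasted against cafeteria fed rats of Sdhd (0.00542), and in cafeteria fed against control fed rats of Ndufb9 (-0.00642). Cy5 alone turned Atp5e in control fasted against control fed rats (-0.00598) and Ndufs8 in the diet mean (-2.29e-05), and the authors' deposited table turned Uqcrh there (0.00573). With the rat number as a replicate block, only the diet comparisons and interactions could be fitted, and 0 members were called in them, as without it. The 5 calls between control refed and control fasted rats cannot be examined with this block, since the rats of different feeding states share no number.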

Other observations

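The mean of the 79 respiratory chain probes followed that of 62 mitochondrial ribosomal proteins across the 29 rats, as a description (r = 0.71, rho = 0.72; 0.81 and 0.63 within the image extraction runs, 0.80 with each group centred on its mean). Without control fasted rats 2 and 8, farthest from the median, r was 0.64. Both means come from the same arrays, pool and loess normalization, which they share, and under median centring r was 0.98.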
